A study of Sus scrofa with 70 samples.

Results

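PRSS and TMPRSS genes encode serine proteases, and their transcripts were followed across the male reproductive glands of the pig. The members were all genes of the deposited annotation whose name begins with PRSS or TMPRSS followed by a digit, which gave 34 of the 35552 genes with a transcript abundance, 20 of them PRSS and 14 TMPRSS. The data come from untreated boars aged 12 months, from which the testis, the epididymis and the 3 accessory glands, the vesicular, prostate and bulbourethral ones, were taken. The boars belonged to the Diannan small-ear pig (DSE) or to the Banna mini-pig inbred line (BMI), an inbred line that was derived from DSE. RNA-seq was performed on 3 libraries and Iso-seq, which reads whole transcripts, on 1 library for each breed and gland. No label says which boar a replicate came from, so the p-values below measure the spread between these libraries.

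Most of these enzymes share the trypsin fold, in which a histidine, an aspartate and a serine form the catalytic triad and the serine attacks the peptide bond. They are made as inactive zymogens and are switched on by a cut that frees the start of the catalytic domain. PRSS proteins are secreted or held at the membrane by a lipid anchor or a terminal helix, and TMPRSS proteins are anchored by a helix near their start. In male glands such proteases are known from the sperm acrosome and surface, from the processing of seminal proteins, and from the activation of epithelial sodium channels.

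The sequence around the catalytic serine is shown for 9 members, because the most abundant members of testis differ from the others at this position. Each line gives 27 bases of the coding strand from the pig reference genome, build Sscrofa11.1 (susScr11), starting 2 codons before the serine position, and the codon at that position is in capitals. All stretches lie within a coding exon.
PRSS8, chr3:17361262-17361288, plus strand: ggtgacTCTgggggccccctctcctgc
PRSS22, chr3:39366260-39366286, minus strand: ggcgacTCCgggggccccctgatgtgc
PRSS21, chr3:39322462-39322488, plus strand: ggtgacTCAggcggacccctggcctgc
TMPRSS2, chr13:204877938-204877964, minus strand: ggtgacAGCggaggtcctctggtcact
TMPRSS4, chr9:45433507-45433533, plus strand: ggtgacAGTggtgggcctctgatgtat
PRSS51, chr14:13747447-13747473, minus strand: ggagacAGTggggcacctatggtctgt
PRSS37, chr18:8118467-8118493, plus strand: gaggtgGCTgtcgctactgtcatctgc
PRSS54, chr6:20086404-20086430, minus strand: ggggacCCCggaaacccaatgatgtgc
PRSS58, chr18:7722787-7722813, plus strand: gaagtcACAgctgctcccgcagtgtgt

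Positions were found by aligning the translated coding sequence of each member with that of PRSS8. A serine codon stood at the serine position in 28 members, and all of these also had the histidine and aspartate codons. Another codon stood there in 3 members, which were alanine in PRSS37, proline in PRSS54 and threonine in PRSS58. PRSS37 had the other members of the triad, whereas PRSS58 had asparagine in place of aspartate, and PRSS54 had serine for histidine and asparagine for aspartate. The remaining members, PRSS16, PRSS23 and PRSS35, did not align there. In 30 of the 31 aligned members a coding exon began exactly 6 bases before the serine codon, with PRSS12 the exception. Identity with PRSS8 over the aligned part was 25.4% for PRSS37, 26.6% for PRSS54 and 27.7% for PRSS58, against 45.2% for PRSS22 and 39.6% for TMPRSS2.

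Abundance is given in TPM, the authors' estimate of each transcript's share of a library's transcripts, summed over the transcripts of a gene. TPM corrects for transcript length, so levels can be compared between genes. In bulk samples, fewer cells of a type and less RNA per cell cannot be told apart. The summed TPM of all members was between 215 and 1468 in the 30 libraries. A mean of at least 1 TPM was reached by 15 members in testis, 14 in epididymis, 8 in each of prostate and bulbourethral gland and 7 in vesicular gland. Testis held the highest of these means for 11 members, epididymis for 7, bulbourethral gland for 4, and vesicular and prostate gland for 2 each. Only 7 members were above 0 in all libraries.

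**Figure D1:**
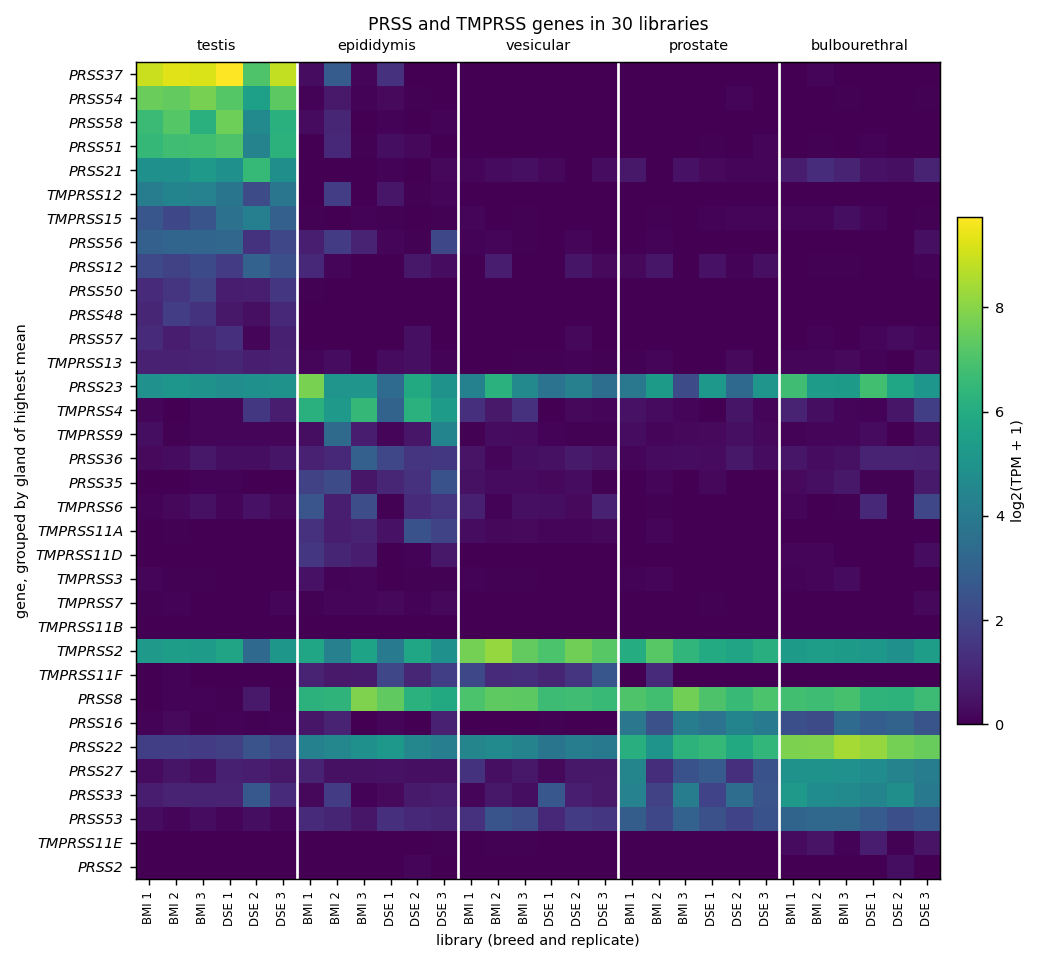
Level of each of the 34 members (y axis, grouped by the gland of the highest mean) in each of the 30 libraries (x axis, by gland, breed and replicate), with log2(TPM + 1) as colour. PRSS37, PRSS54, PRSS58 and PRSS51 were high in testis alone, and PRSS8 was high in every gland but testis.

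Of the 30 RNA-seq libraries, 3 stood apart from the others of their label. DSE testis replicate 2 correlated with the testis mean at 0.917 (Pearson's r over log2 levels of 19796 genes), against 0.975 to 0.987 for the other testis libraries. All 7 spermatid markers were detected in testis, and their summed level was 24046 TPM in DSE testis replicate 2 and 70015 to 107200 TPM in the other testis libraries, whereas the 4 Leydig cell markers summed to 63338 and 18526 to 32256 TPM. The library labelled BMI prostate gland replicate 2 goes against its label, since it correlated more with the vesicular gland mean (0.970) than with the prostate gland mean (0.943), which was 0.961 to 0.985 for the other prostate libraries. Its urothelium markers summed to 58.5 TPM, against 1.14 to 13.1 TPM in the other prostate and 58.3 to 170 TPM in the vesicular gland libraries. DSE epididymis replicate 1 correlated with the epididymis mean at 0.899, against 0.942 to 0.972 for the other epididymis libraries. Measures of RNA quality and mapping were not used here, so their part in its values was not tested. The part of cell composition in the results was not tested.

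Each gland was compared with the other 4 glands by limma on log2(TPM + 1), as the gland's mean minus the average of the other gland means. A member was called where the Benjamini-Hochberg adjusted p over all 19796 genes tested was below 0.05 and the difference was at least 1 on the log2 scale. The level filter was passed by 26 members. The others, PRSS2, TMPRSS11B, TMPRSS11D, TMPRSS11E, TMPRSS13, TMPRSS3, TMPRSS7 and TMPRSS9, were too low or too seldom detected to be tested. A member can pass the filter through the gland where it is high, and 15 of the 31 higher calls, all 11 in testis among them, were of members with at least 1 TPM in fewer than 3 libraries of the other glands. For these the difference is a description and no p is given, and counts of calls describe the members beside the share of all tested genes called.

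Testis stood apart by 4 abundant members that were close to 0 elsewhere. Of the members tested, 11 were higher in testis and 7 were lower, where 34.6% and 12.7% of all genes were called in these directions. The 6 testis libraries all lay above the other 24 libraries for 10 members (23.8% of all genes) and all below for 3 (3.15%). The median difference was -0.18 over the members and 0.31 over all genes. Counts in testis were the same without DSE testis replicate 2.

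PRSS37 is a protease-like protein of spermatids that is needed in mice for the maturation of the sperm surface protein ADAM3. It was the most abundant member in testis, where its 6 libraries ran from 131 TPM through a median of 538 to 855 TPM. It was listed at 0 in all vesicular and prostate libraries and reached at most 6.23 TPM in epididymis and 0.0950 TPM in bulbourethral gland, so the glands did not overlap. The difference was 8.64 ± 0.30 (SE) on the log2(TPM + 1) scale, and 9.01 without DSE testis replicate 2.

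PRSS54, another testis protease-like protein, had 43.6 to 213 TPM in testis with a median of 161, and at most 0.584 TPM in any other library. Its difference was 7.04 ± 0.16. PRSS58 (24.4 to 192 TPM, difference 6.34) and PRSS51 (19.8 to 130 TPM, difference 6.19) followed. With Ensembl transcripts alone, that is without the TPM of Iso-seq isoforms, the differences in testis were 5.26 for PRSS37, 1.33 for PRSS54 and 1.89 for PRSS51. That of PRSS21, described next, was 1.82, and PRSS58, TMPRSS12 and TMPRSS15 did not pass the filter. These values too are a description. PRSS37 and PRSS58 lie on the same chromosome, and the other members of this quartet each on one of their own.

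PRSS21, known as testisin, is a lipid-anchored protease of late germ cells. It had 28.1 to 90.6 TPM in testis and at most 1.36 TPM in the other glands, a difference of 4.87. TMPRSS12, which is known from sperm, had 3.78 to 20.2 TPM in testis and a difference of 3.67. Less abundant were TMPRSS15 or enteropeptidase, the activator of trypsinogen in the duodenum, at 8.18 ± 5.31 TPM (SD, n = 6), PRSS12 or neurotrypsin at 3.97 ± 1.80 TPM and PRSS56 at 6.03 ± 2.86 TPM. PRSS12 lies opposite an antisense transcript with means of 4.14 TPM in testis, 7.50 in epididymis and 2.22 to 3.77 TPM in the accessory glands. PRSS12 itself had means of 0.340 TPM in epididymis and 0.0301 to 0.242 TPM in the accessory glands. Since the strand setting of the RNA-seq is not given in the sources used here, reads of the pair may not be told apart. The part of such reads in the PRSS12 values was not tested. PRSS50 (1.53 TPM) and PRSS48 (1.21 TPM) completed the list. PRSS48 lay close to the threshold, with a difference of 1.07 that became 0.98 without BMI testis replicate 2 and 0.96 without DSE testis replicate 3.

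The library DSE testis replicate 2 split the testis members. Of the 15 members with a testis mean of at least 1 TPM, it held the lowest value for 8 and the highest for 5. PRSS37 was 131 TPM there and 456 to 855 TPM in the others, and PRSS54, PRSS58, PRSS51 and TMPRSS12 were likewise lowest there. PRSS21 went the other way, with 90.6 against 28.1 to 37.0 TPM, as did PRSS33 with 5.39 against 0.734 to 1.26 TPM. PRSS23, a secreted protease, was 28.8 TPM there and 26.7 to 33.5 TPM in the others. Without this library the differences were 7.33 for PRSS54, 6.71 for PRSS58, 6.57 for PRSS51 and 4.60 for PRSS21. They were 3.93 for TMPRSS12, 2.80 for TMPRSS15 and 1.83 for PRSS12, all given as a description. The spermatid and Leydig marker sums of this library, given above, moved with these values, and their part was not tested.

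**Figure D2:**
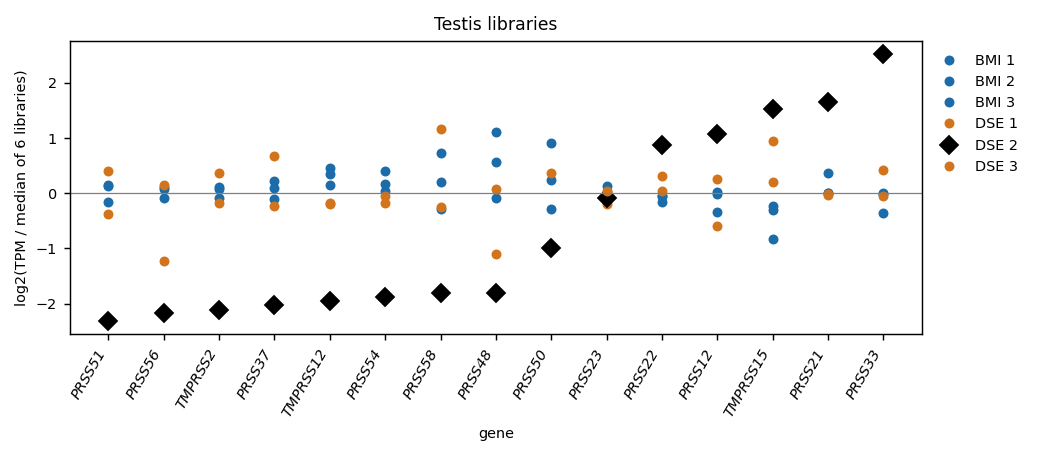
Level of the 15 members with a testis mean of at least 1 TPM in each of the 6 testis libraries, as log2 of the TPM over the median of the 6; dots are libraries coloured by breed and the black diamond is DSE testis replicate 2. The diamond is the lowest point for 8 members, PRSS37 among them, and the highest for 5, PRSS21 and PRSS33 among them.

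The 3 members without a serine codon made up most of the summed member TPM of testis. Their share was 73.5% ± 11.3 (SD, n = 6) and ran from 50.6% in DSE testis replicate 2 through a median of 77.2% to 81.0%. Without that library it was 78.0% ± 1.8 (SD, n = 5). It was at most 3.52% in epididymis, 0.0466% in prostate and 0.0194% in bulbourethral gland libraries, and these members were listed at 0 in every vesicular gland library. The summed TPM of the 28 members with a serine codon was 166 to 253 TPM in testis, 179 to 415 TPM in epididymis, 249 to 488 TPM in vesicular gland, 220 to 390 TPM in prostate and 365 to 565 TPM in bulbourethral gland. On the TPM scale the testis range overlapped with all but that of the bulbourethral gland. The 10 most abundant transcripts took 47.3% to 64.7% of TPM in vesicular gland libraries and 12.7% to 19.9% in testis libraries. The member sums were not recomputed with another scaling, so whether these ranges overlap beyond the TPM scale was not tested. Each member was classed by the coding sequence of 1 transcript, and its TPM was summed over all transcripts, including TMPRSS2 isoforms whose predicted coding sequence ends before the serine codon, as described below.

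**Figure D3:**
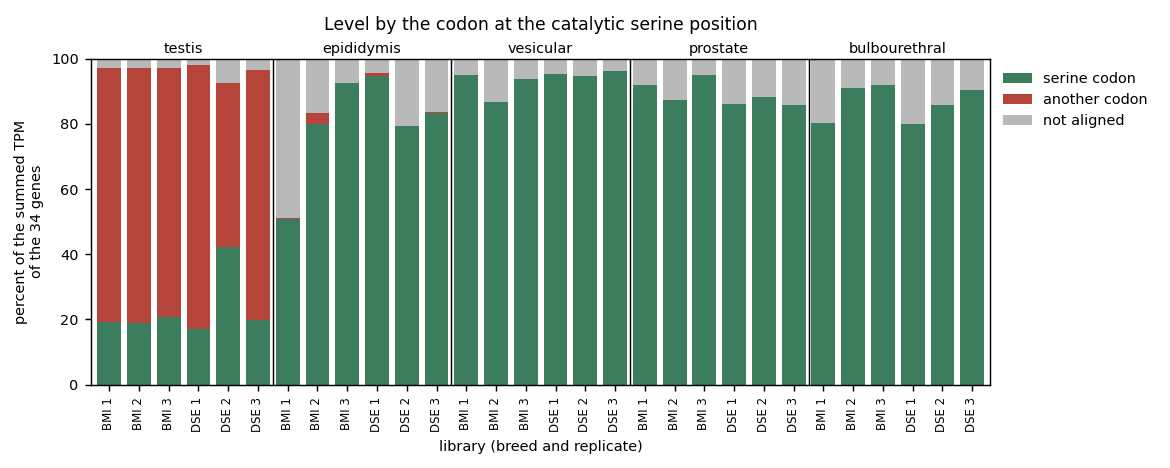
Share of the summed member TPM (percent, y axis) by the codon at the catalytic serine position in each library of the 5 glands. The members with another codon, PRSS37, PRSS54 and PRSS58, took 50.6% to 81.0% in testis libraries and at most 3.52% in any other.

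Lower in testis were 7 members, with PRSS8 and PRSS22 the furthest from the other glands. PRSS8, or prostasin, is a lipid-anchored protease that activates the epithelial sodium channel. It had at most 0.584 TPM in testis, in DSE replicate 2, and 58.7 to 232 TPM in the 24 libraries of the other glands, a difference of -6.65 ± 0.19 (limma, adjusted p = 1.76e-20). PRSS22, an epithelial tryptase, ran from 2.29 to 4.63 TPM in testis with a median of 2.53, below its range in every other gland, with a difference of -3.75 ± 0.17, or -1.63 with Ensembl transcripts alone. PRSS53, or polyserase-3, was also below in all testis libraries (difference -1.80). PRSS16, PRSS27, TMPRSS4 and PRSS33 were called lower with overlapping libraries, of which PRSS27 was not called with Ensembl transcripts alone (-0.59 against -1.51) and TMPRSS4 not with DSE alone (-0.67 against -1.26). PRSS33 was near the threshold (-1.05) and was not called with DSE alone (-0.65) or with a pseudocount of 0.1 (-1.04). It was also no longer called without any 1 of 6 libraries. The difference was -0.88 without DSE testis replicate 1, -0.94 without DSE testis replicate 3 and -0.97 without DSE vesicular gland replicate 1. It was -0.98 without BMI epididymis replicate 2, -0.99 without BMI prostate gland replicate 1 and -0.99 without DSE prostate gland replicate 2. The 7 gland epithelium markers, EPCAM and keratins among them, summed to 14.6 to 42.0 TPM in testis and to 752 to 2872 TPM in the other glands.

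Epididymis was marked by TMPRSS4, a transmembrane protease of epithelia. In epididymis 6 members were called higher and 8 lower, where 15.1% and 6.56% of all genes were called, and the libraries of 2 members lay all above the others (3.02% of all genes). The median difference was -0.39 over the members and 0.25 over all genes. Fewer were called lower with Ensembl transcripts alone, as given below. TMPRSS4 ran from 7.59 TPM in DSE epididymis replicate 1 through a median of 55.4 to 89.5 TPM, and no library of another gland exceeded 2.46 TPM. The difference was 4.92 ± 0.30 (limma, adjusted p = 1.85e-12), and 5.36 without DSE epididymis replicate 1. Markers of several cell types were also called higher in epididymis, 5 of 5 tested for epididymal principal cells, 4 of 4 for smooth muscle, 3 of 3 for urothelium, 2 of 2 for basal cells and 5 of 7 for gland epithelium. The urothelium markers summed to 43.6 to 1425 TPM in epididymis, against at most 170 TPM in any other library, and the smooth muscle markers to 816 to 13343 TPM, against at most 2614 TPM. Basal cell markers, at 22.2 to 118 TPM, overlapped with vesicular and bulbourethral gland. Their part in the TMPRSS4 difference was not tested.

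TMPRSS11A, of the airway-trypsin subfamily of transmembrane proteases, was low but also without overlap, from 0.391 through a median of 1.25 to 4.41 TPM in epididymis against at most 0.266 TPM elsewhere (difference 1.27 ± 0.15). Its lowest value was again that of DSE epididymis replicate 1, and the difference was 1.56 without it. The counts of members called in epididymis were the same without that library. With median-of-ratios size factors its difference was 0.999, just under the threshold, and 2 members, TMPRSS4 and PRSS35, were called higher in epididymis. With Ensembl transcripts alone neither TMPRSS11A nor PRSS36 passed the filter. PRSS35, known from the ovary, and PRSS36, or polyserase-2, had 2.35 ± 1.56 and 2.64 ± 2.23 TPM in epididymis. PRSS36 was not called without BMI epididymis replicate 3 (0.88). TMPRSS6, or matriptase-2, known from iron regulation in liver, was 2.12 ± 1.91 TPM, and its difference of 1.07 was 0.44 with DSE alone and under 1 without any 1 of 4 epididymis libraries, at 0.90 without BMI replicate 1, 0.97 without BMI replicate 3, 0.995 without DSE replicate 2 and 0.93 without DSE replicate 3.

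PRSS8 was the most abundant member of epididymis, with 58.7 TPM at the lowest, a median of 77.1 and 232 TPM at the highest. The means of the accessory glands were 124 ± 27.0 TPM in vesicular gland, 131 ± 36.9 in prostate and 98.9 ± 16.7 in bulbourethral gland. PRSS8 was called higher in each of these 4 glands, at 1.47, 1.83, 1.91 and 1.43, and every one of these contrasts includes the testis, where it was near 0. In epididymis it was not called with median-of-ratios size factors (0.94). Lower calls of testis members such as PRSS37 outside the testis restate their testis level. Lower calls of TMPRSS4 in the 4 other glands likewise restate its epididymis level, since its means there were 0.215 to 0.737 TPM against 52.9 TPM in epididymis. TMPRSS9 did not pass the filter and was uneven in epididymis, where DSE replicate 3 had 19.9 TPM, BMI replicate 2 had 9.25 TPM and the other 4 had 0.0962 to 0.728 TPM.

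**Figure D4:**
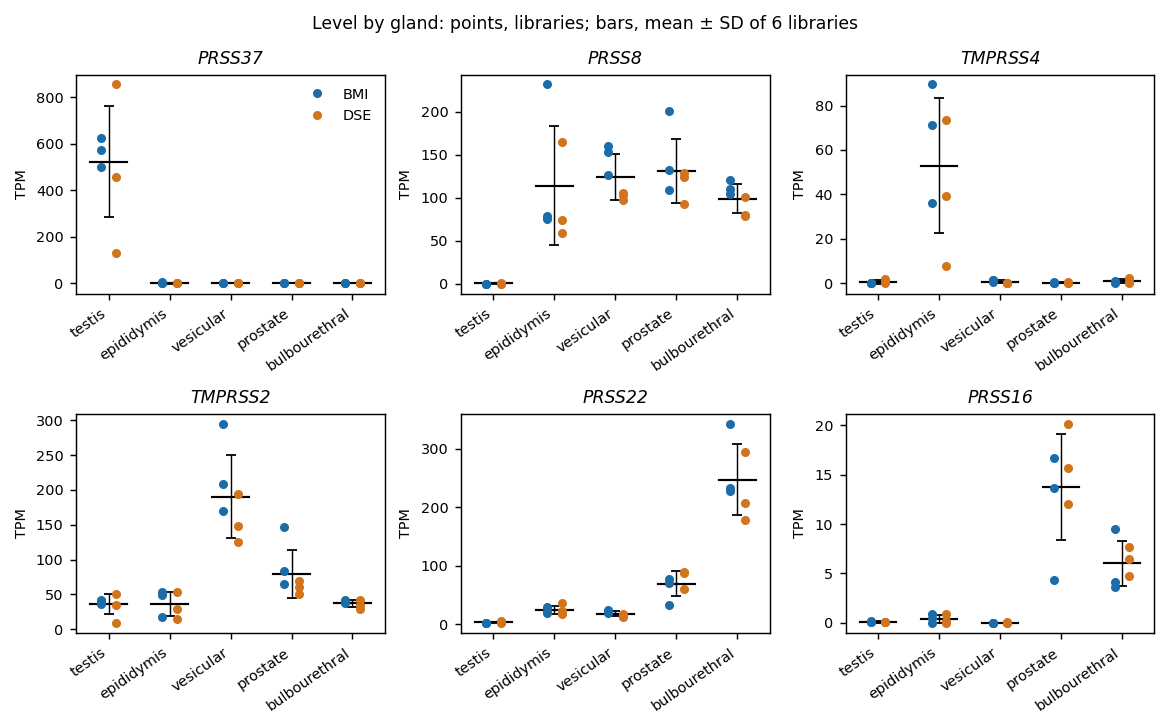
TPM (y axis, linear, one scale per panel) of PRSS37, PRSS8, TMPRSS4, TMPRSS2, PRSS22 and PRSS16 by gland (x axis), where each dot is a library coloured by breed and bars are the mean ± SD of the 6 libraries of a gland. PRSS22 in bulbourethral gland (178 to 343 TPM) and TMPRSS4 in epididymis (7.59 to 89.5 TPM) lay above all libraries of the other glands.

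Vesicular gland held the highest level of TMPRSS2, a transmembrane protease that is known from prostate epithelium and for cutting viral spike proteins. Of the members tested, 3 were higher and 10 lower, where 2.95% and 30.1% of all genes were called. No member had all its vesicular gland libraries above the others (0.278% of all genes). The median difference was -0.72 over the members and -0.69 over all genes. Fewer were called lower with Ensembl transcripts alone, as given below. TMPRSS2 ran from 125 through a median of 182 to 295 TPM, with a difference of 2.13 ± 0.26 (limma, adjusted p = 1.67e-07), and 2.17 without the library labelled BMI prostate gland replicate 2. The overlap with other glands came from the library labelled BMI prostate gland replicate 2 alone, at 147 TPM, since no other library outside the vesicular gland exceeded 83.3 TPM.

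TMPRSS11F, a member of the airway-trypsin subfamily, was the third call in vesicular gland, and did not pass the filter with Ensembl transcripts alone. It had 0.991 to 5.04 TPM there and 0.605 to 3.25 TPM in epididymis, and was listed at 0 in the bulbourethral gland and in 5 of the 6 prostate libraries. The prostate library with a value, 1.24 TPM, was again the one labelled BMI prostate gland replicate 2. The difference was 1.26 with it and 1.30 without it. Of the lower calls in vesicular gland, TMPRSS4 (-1.09) was not called without BMI vesicular gland replicate 2 (-0.97). The 5 genes of the airway-trypsin subfamily, TMPRSS11D, TMPRSS11A, TMPRSS11F, TMPRSS11B and TMPRSS11E, lie in a row on chromosome 8, and 2 of them passed the filter.

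TMPRSS2 transcripts began at different first exons in testis and in vesicular gland. Its 28 annotated transcripts began in 6 regions, where first exons within 500 bases of each other were joined. The first region, chr13:204914240-204915044 on the minus strand, opened 21 transcripts and took 90.7% ± 9.0 (SD, n = 6) of TMPRSS2 TPM in vesicular gland. In testis that region took 2.41%, and 69.2% ± 5.4 came from the sixth region, chr13:204882822-204883182, which starts 31862 bases inside the gene. A further 28.2% ± 5.1 in testis came from the fifth region, chr13:204902295-204902658.

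Full-length reads showed the same separation. The first region had 462 reads in BMI and 471 in DSE vesicular gland and 0 in both testis libraries. The sixth region had 6 reads in BMI and 11 in DSE testis, and the fifth had 3 and 4. Among the isoforms placed in a region, neither had a read in any other library. Placed were the 27 Iso-seq isoforms of the annotation, of 29 with full-length reads. The others, PB.5623.38 and PB.5623.39, are incomplete matches whose starts were not placed. They had 3 and 2 reads, all outside testis and epididymis. Shares from RNA-seq were less even in the other glands, where the first region took 12.1% to 100% in epididymis, 28.6% to 99.8% in prostate and 24.8% to 100% in bulbourethral gland. In DSE epididymis replicate 1, the library with the lowest correlation with its gland's mean, the sixth region was assigned 61.1% of TMPRSS2 TPM although no full-length read of epididymis began there.

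**Figure D5:**
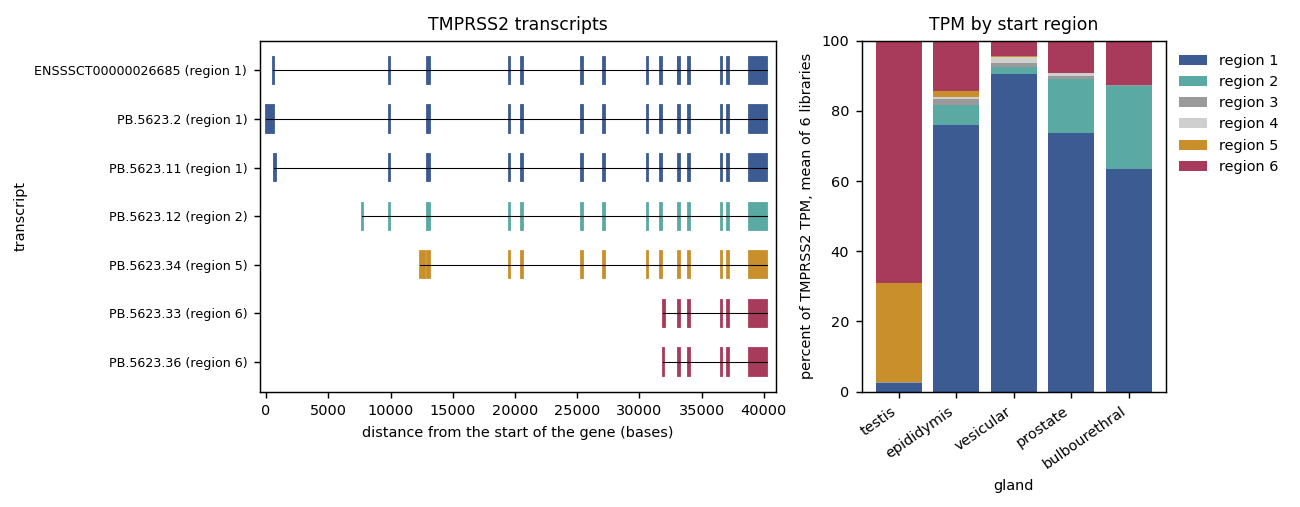
Left, the Ensembl model and some Iso-seq isoforms of TMPRSS2, with exons as boxes against distance from the gene start in bases and start regions by colour, and right, the share of TMPRSS2 TPM (percent, mean of 6 libraries) by start region in each gland. The first region took 90.7% in vesicular gland, and the fifth and sixth regions together took nearly all of testis.

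The predicted reading frame of the main TMPRSS2 isoform, taken on the bases of the reference genome, also differed from the Ensembl model. The Ensembl model has a 2-base gap between exons, and 23 of the 27 Iso-seq isoforms of the annotation that were examined read through it. The 58 bases around it, chr13:204881891-204881948 on the minus strand of Sscrofa11.1, are printed with the 2 bases of the gap in capitals.
TMPRSS2: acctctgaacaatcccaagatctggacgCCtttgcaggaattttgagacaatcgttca
Of the Iso-seq isoforms with a predicted coding sequence, 15 ended at the tga 16 bases past the gap. The isoform with the most full-length reads, PB.5623.2, had 1330 of the 1504 reads of TMPRSS2 and a predicted product of 318 residues, and was marked by the authors' isoform classification as a candidate for nonsense-mediated decay. On the reference genome its predicted coding sequence thus ends before the serine codon shown above. The bases of the reads themselves were not examined. Whether the transcripts of these boars carry this tga in frame was therefore not tested, and nothing is read about the protein. Gaps under 30 bases stood in the Ensembl models of 10 members, among them PRSS22, PRSS58 and TMPRSS12.

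Prostate gland was marked by PRSS16, a protease known from thymus that belongs to another fold. In prostate 4 members were higher and 7 lower, where 3.7% and 12.8% of all genes were called, and no member had all its libraries above the others (0.177% of all genes). The median difference was -0.49 over the members and -0.28 over all genes. PRSS16 had 4.33 TPM in the library labelled BMI prostate gland replicate 2 and 12.0 to 20.1 TPM in the others, with a median of 14.7 over all 6, and 3.63 to 9.47 TPM in bulbourethral gland. The difference was 2.94 ± 0.20 (limma, adjusted p = 4.12e-11). Without the library labelled BMI prostate gland replicate 2 it was 3.21, and the prostate and bulbourethral libraries did not overlap.

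PRSS8 was the most abundant member in prostate, from 93.0 through a median of 127 to 201 TPM. PRSS22 had 32.1 to 89.5 TPM, again lowest in the library labelled BMI prostate gland replicate 2, and its difference of 1.40 was 0.46 and not called with Ensembl transcripts alone. PRSS33, known from eosinophils, had 2.78 to 19.1 TPM. Its difference of 1.21 was not called without BMI prostate gland replicate 1 (0.99) or with DSE alone (0.69). With the library labelled BMI prostate gland replicate 2 left out, 6 members were higher and 8 lower in prostate. The members added were PRSS27 and PRSS53, at 1.21 and 1.13, and the lower one was PRSS23 at -1.35.

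Bulbourethral gland held the highest means of PRSS22, PRSS27 and PRSS33, which lie in one cluster with PRSS21, a testis member. In this gland 7 members were higher and 6 lower, where 8.45% and 12% of all genes were called, and the libraries of 1 member lay all above the others (1.74% of all genes). The median difference was -0.36 over the members and -0.05 over all genes. Fewer were called lower with Ensembl transcripts alone, as given below. The 7 gland epithelium markers were all called higher here too and summed to 2414 to 2872 TPM, against at most 2402 TPM in any other library, and their part in the member differences was not tested. The member above all other libraries was PRSS22, with 178 TPM at the lowest, a median of 230 and 343 TPM at the highest, against at most 89.5 TPM elsewhere. The difference was 3.72 ± 0.17 (limma, adjusted p = 4.08e-15), and 1.11 with Ensembl transcripts alone.

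PRSS27, or marapsin, had 15.9 to 31.2 TPM, and only BMI prostate gland replicate 1, at 20.3 TPM, reached this range from another gland. PRSS33 had 14.4 to 36.2 TPM and overlapped with BMI prostate replicates 1 and 3, at 19.1 and 15.9 TPM. The differences were 3.63 ± 0.27 and 3.18 ± 0.33, and that of PRSS27 was 1.16 with Ensembl transcripts alone. PRSS22, PRSS27, PRSS33 and PRSS21 lie within chr3:39302369-39399970, and the first 3 had their highest mean in bulbourethral gland and PRSS21 in testis. PRSS36, PRSS8 and PRSS53 lie close to each other elsewhere on that chromosome, within chr3:17345892-17396885, and had theirs in epididymis, prostate and bulbourethral gland.

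PRSS16, PRSS53 and PRSS23 were also higher in bulbourethral gland, at 1.67, 1.53 and 1.11. PRSS23 had 33.7 to 109 TPM there and was not called without BMI bulbourethral gland replicate 1 (0.88) or DSE bulbourethral gland replicate 1 (0.89). Of the lower calls, TMPRSS4 (-1.04) was no longer called without DSE testis replicate 2 (-0.99), and likewise without BMI bulbourethral gland replicate 3, DSE bulbourethral gland replicates 1 and 2 or DSE epididymis replicate 2. TMPRSS12, at -1.05 in vesicular, prostate and bulbourethral gland, was not called there without BMI epididymis replicate 2 (-0.98).

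The differences were also computed with another scaling. With median-of-ratios size factors, the median difference of all genes moved from 0.31 to 0.11 for testis, from 0.25 to -0.13 for epididymis, from -0.69 to -0.20 for vesicular gland, from -0.28 to -0.19 in prostate and from -0.05 to -0.20 in bulbourethral gland. TMPRSS2 was then also called lower in testis, at -1.24 against -0.97. No member called in a gland changed direction.

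The breeds were compared within each gland, DSE minus BMI, to see whether the inbred line differed from the breed it was derived from. No member was called in any gland by limma within the gland, where the share of all genes called was 0.197% for testis, 0% for epididymis, 0.0152% for vesicular gland, 0.0859% for prostate and 0.0253% for bulbourethral gland. At an unadjusted p below 0.05 there were 5 members in bulbourethral gland, 4 in vesicular gland, 3 in testis and 1 each in epididymis and prostate, of 26 tested. Of all genes, 6.07% had such a p in bulbourethral gland, 15.4% in vesicular gland, 12.6% in testis, 2.44% in epididymis and 26.2% in prostate. With 3 libraries a breed, this does not show that the breeds were alike.

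Among those with an unadjusted p below 0.05, TMPRSS15 in testis had the largest difference. Larger ones with no such p were those of PRSS23, at -1.21 ± 1.01 in epididymis and -1.20 ± 0.58 in vesicular gland. In testis, TMPRSS15 was 5.06, 3.37 and 4.84 TPM in BMI and 11.6, 17.3 and 6.88 TPM in DSE, so all DSE libraries were above. The difference was 1.18 ± 0.36 (limma, adjusted p = 0.321), and the highest value came from DSE testis replicate 2, without which the difference was 0.89 (limma, adjusted p = 0.289). One limma fit of all 30 libraries, in which the glands share 1 estimate of the spread, called TMPRSS15 in testis (adjusted p = 0.000153). That estimate includes the 24 libraries of other glands, where TMPRSS15 was near 0 with little spread, so nothing is read from this call. In a test of whether the breed difference varied among glands, TMPRSS15 was the only member called (limma F test of the interaction, F = 8.26, adjusted p = 0.0130, where 2.94% of all genes were called). TMPRSS15 passed the filter through the testis libraries alone, and no other library exceeded 0.295 TPM, so this test sets the testis difference, itself not called, against values near 0 with little spread, and nothing is read from it. It was not called with a pseudocount of 0.1 or without BMI testis replicate 2. TMPRSS11A was also called by this test without DSE epididymis replicate 1. Full-length reads of TMPRSS15 came from testis alone, 11 in BMI and 24 in DSE.

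In vesicular gland, PRSS8 was 127, 160 and 153 TPM in BMI and 103, 106 and 97.3 TPM in DSE, all lower (difference -0.51 ± 0.11, limma, adjusted p = 0.204). TMPRSS4 was 1.56, 0.586 and 1.61 TPM in BMI and 0, 0.146 and 0.0869 TPM in DSE there, at levels near the filter (difference -1.03 ± 0.22, limma, adjusted p = 0.202).

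Iso-seq gave the transcript structures behind these levels. The deposited isoforms held 231413 to 458697 full-length reads in each of the 10 libraries, which is not the whole depth of a library, since reads outside these isoforms are not in the table. In this table a count of 0 allows up to 3 reads of a library of that size, for counting error only. Members had 2525 full-length reads in 84 isoforms of 23 genes, and 12 members had at least 10. Isoforms with a splice site not in the reference numbered 48 and held 333 reads, those with new combinations of known sites numbered 18 and held 1452, and those that match a reference transcript numbered 7 and held 661. With 1 library per breed and gland nothing was tested.

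The most abundant testis members had full-length reads in testis alone. PRSS37 had 33 reads in BMI and 28 in DSE testis, PRSS54 41 and 29, PRSS51 14 and 16, and PRSS58 10 and 17, and none of these had a read outside testis. This did not hold for every testis member, since TMPRSS12 had 3 reads in BMI testis, 2 in BMI and 1 in DSE epididymis, and PRSS12 had 6 in BMI and 2 in DSE testis, 1 in BMI epididymis and 2 in DSE prostate. PRSS8 had 0 reads in both testis libraries and 15 to 72 in the other 8. PRSS23 had 14 to 45 in all 10 libraries. PRSS22 had few, 7 in BMI (exact 95% Poisson interval 2.81 to 14.4) and 15 in DSE bulbourethral gland (8.40 to 24.7), although it had the highest TPM of all members there. TMPRSS4 had 1 and 4 in epididymis. In prostate, TMPRSS2 had 296 reads in BMI and 98 in DSE, and TMPRSS11F had 11 and 0. In RNA-seq the only prostate library with TMPRSS11F was the one labelled BMI prostate gland replicate 2 (1.24 TPM), which goes against its label. No label says whether the BMI prostate Iso-seq library came from the same tissue, so these reads are not read as a breed difference.

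For PRSS37, PRSS58 and PRSS51, 1 isoform carried most of the TPM in testis, but not for PRSS54. PB.9345.2 made up 68.7% ± 3.3 of PRSS37 in testis, PB.9338.1 made up 99.2% ± 0.38 of PRSS58, PB.5731.5 made up 58.2% ± 9.3 of PRSS51 and PB.15369.4 made up 38.9% ± 2.3 of PRSS54 (SD, n = 6). PB.11944.234 made up 54.2% ± 3.0 of PRSS22 in bulbourethral gland (names with PB are Iso-seq isoforms). It had only 1 of the 7 full-length reads of PRSS22 in BMI and 1 of the 15 in DSE bulbourethral gland, and was also marked as a candidate for nonsense-mediated decay. PRSS8 was carried by its Ensembl transcript, at 87.9% to 97.5% on average in the 4 other glands. One isoform, PB.4268.149, joined PRSS50 with the unnamed gene beside it and had 2 full-length reads in BMI testis. Its TPM was 6.93 in testis on average, above the 1.53 TPM of PRSS50 itself.

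Genes that act with these proteases were followed in lists of related proteases, inhibitors, and substrates or partners. Their counts stand against the shares of all genes called, which were 34.6% higher and 12.7% lower for testis, 15.1% and 6.56% for epididymis, 2.95% and 30.1% for vesicular gland, 3.7% and 12.8% for prostate, and 8.45% and 12% for bulbourethral gland. With so few genes in a list, nothing particular to a list is read from them. Of 10 related serine proteases tested, 3 were higher and 5 lower in testis. ACR, the acrosomal protease acrosin, had 344 ± 131 TPM in testis (difference 8.19 ± 0.18), whereas ST14, or matriptase, the usual partner of prostasin, was lower at 2.53 ± 1.39 TPM (difference -4.62 ± 0.18), as was HPN, or hepsin (-3.76 ± 0.20). In prostate 2 were higher, HPN at 75.5 ± 20.5 TPM and ST14 at 106 ± 44.5 TPM, and 1 lower. In bulbourethral gland 4 were higher and 1 lower, in epididymis 4 and 1, and in vesicular gland 0 and 3.

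Of 6 inhibitors tested, 2 were higher and 2 lower in testis (34.6% and 12.7% of all genes). SERPINA5, the protein C inhibitor, had 204 ± 93.3 TPM in testis (difference 7.53), and SPINT1, the inhibitor of matriptase and prostasin, was lower (-6.17). SPINT1 had its highest mean in bulbourethral gland, 181 TPM with a range of 119 to 217 TPM (difference 2.93), where 2 inhibitors were higher and 1 lower. There were 2 higher and 1 lower in epididymis, 1 and 2 in vesicular gland, and 1 and 1 in prostate.

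Of 14 substrates and partners, 8 were higher and 2 lower in testis (34.6% and 12.7% of all genes), with the sperm proteins ADAM3A (8.25), ACRBP (7.54) and PDILT (6.59) the largest. In bulbourethral gland 3 were higher and 7 lower. SCNN1A, the alpha subunit of the epithelial sodium channel that prostasin activates, had 71.5 to 120 TPM in bulbourethral gland and at most 39.2 TPM elsewhere (difference 5.10 ± 0.40, limma, adjusted p = 1.96e-10). The beta and gamma subunits, SCNN1B and SCNN1G, were low, at 1.35 TPM each in bulbourethral gland, and were not called there. SCNN1B had its highest mean in vesicular gland, at 0.963 to 3.83 TPM, and SCNN1G in prostate, at 0.566 to 3.89 TPM. In epididymis 4 were higher and 4 lower, in vesicular gland 1 and 9, and in prostate 0 and 9. None of the listed genes was called between the breeds.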

How the data were processed

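The authors ran Iso-seq and paired-end RNA-seq on testis, epididymis, vesicular, prostate and bulbourethral gland of both breeds. They clustered the full-length reads, aligned them to Sscrofa11.1 and classified isoforms with SQANTI3, and deposited counts of full-length reads per isoform and library without normalization. RNA-seq was aligned and quantified by the authors with salmon on the merged annotation and deposited as TPM per transcript. The submitters' processing notes name GSNAP, STAR 2.7.10a and Salmon 1.9.0. TPM does not hold the number of RNA-seq reads, and the read totals that the study lists were not used here, so no counting interval is given for TPM. The small RNA table was not used here.

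TPM was summed by gene (35552 genes) and used as log2(TPM + 1). The 19796 genes that reached 1 TPM in 3 or more libraries entered limma 3.58.1 (R 4.3.3, trend), all 30 libraries for the glands and each gland alone for the breeds, with Benjamini-Hochberg adjustment over all genes. Fold changes on this scale understate those of low genes. The fits were tested on simulated data. Coding sequences were translated and aligned with biopython 1.88 (BLOSUM62, local).

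The members and all lists were chosen with earlier results of these data known. Libraries named in full are those of the most abundant member of a gland and of the 2 members with the largest called difference in each direction without overlap, and members near a threshold, which were chosen after their values were seen, as were the isoform starts of TMPRSS2. Replicate numbers were not taken to pair libraries. Alternatives were a pseudocount of 0.1, no filter, size factors, Ensembl transcripts alone, each breed alone, a replicate block, one fit for the breeds and leaving out each library. Leaving out DSE testis replicate 2 and the library labelled BMI prostate gland replicate 2 together was added after the data were seen.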

Additional observations from a re-analysis of the deposited data

Results flagged for a closer look

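Of 52 sets of 6 libraries of a member in a gland, 11 held a library far from the others by Dixon's test at the 95% level. Each flagged value was the highest of its set. The test assumes normally spread values, but TPM was used here without logs and with both breeds together. The sets also share libraries, so the number flagged is not set against chance. DSE testis replicate 2 was the library for PRSS21 (90.57 TPM), PRSS12 (7.393 TPM), PRSS33 (5.392 TPM) and PRSS22 (4.628 TPM), each the highest of testis. PRSS23 was highest in BMI epididymis replicate 1 at 220.7 TPM, against 9.69 to 59.3 TPM, and in BMI vesicular gland replicate 2 at 74.1 TPM, against 10.5 to 23.1 TPM. In prostate, BMI replicate 1 had 20.35 TPM of PRSS27, BMI replicate 3 had 200.6 TPM of PRSS8, and the library labelled BMI replicate 2 had 147.2 TPM of TMPRSS2. PRSS33 was 5.181 TPM in DSE vesicular gland replicate 1, where the others had 0.0931 to 0.750 TPM.

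PRSS37 reached 6.229 TPM in BMI epididymis replicate 2, against 0 to 1.64 TPM. The 7 spermatid markers summed to 965 TPM in this library, the highest of epididymis. Their part in the PRSS37 value was not tested.

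TMPRSS15 was called in the test of breed differences among the glands (limma F test of the interaction, adjusted p = 0.01304). It passed the filter through testis alone and no other gland exceeded 0.295 TPM, so the test adds nothing to the testis difference. That difference was not called in testis alone (limma, adjusted p = 0.321). One fit of all libraries called it, with an estimate of the spread that includes the libraries near 0, so nothing is read from that call either.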

How the results depend on the processing

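The counts of members called were recomputed 540 times, and 526 stayed within 1.5 times of the reported count. With median-of-ratios size factors, 2 members in place of 6 were higher in epididymis. With Ensembl transcripts alone, the members called lower were 3 in epididymis, 4 in vesicular gland, 2 in prostate and 2 in bulbourethral gland, and 0 differed in breed effect among glands. With a pseudocount of 0.1, 15 were lower in prostate and 0 differed in breed effect among glands. Without the filter that count was 2. One fit of all 30 libraries called 1 member, TMPRSS15, between the breeds in testis, from which nothing is read, as stated above. Leaving out 1 library gave 0 to 3 members whose breed difference differed among glands, with 2 without DSE epididymis replicate 1. The cause was not tested.

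The replicate number as a block gave the reported counts, 11 higher in testis and 1 for the breed difference among glands included. Deviations of libraries with the same number in both breeds correlated at a median of -0.042, with 4 of 15 pairs above 0.1. Between glands of one breed, 21 of 60 pairs with the same number were above 0.1 (median 0.041), against 18 of 120 pairs with different numbers (median -0.026). The labels do not say whether libraries with the same number share a boar, and these values do not settle it. The numbers were not read as a pairing, and the main fits took the libraries as independent.

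Of 70 called differences recomputed 2714 times, 2643 values were still called and 0 reversed. With Ensembl transcripts alone 29 of them were lost, 15 tested and not called and 14 of members that did not pass the filter. No longer called were 11 with DSE alone, 10 with size factors and 26 without 1 library. With DSE testis replicate 2 and the library labelled BMI prostate gland replicate 2 both left out, an alternative chosen after seeing the data, 6 members were higher and 8 lower in prostate. With 3 libraries a breed, smaller breed differences could not be called, and Iso-seq had 1 library per group.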

Other observations

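Some loci that RefSeq names as PRSS or TMPRSS have no such name in the deposited annotation, and those of PRSS46 and PRSS55 were expressed in testis. The locus of PRSS46, beside PRSS50 on chromosome 13, had 57.8 TPM in testis on average, from 17.2 to 93.2 TPM, and at most 0.538 TPM in any library of another gland. At the locus of PRSS55, beside PRSS51 on chromosome 14, 3 transcripts fused with MSRA, which repairs oxidized methionine, together had 78.2 TPM in testis on average, from 21.7 to 128 TPM, and at most 0.732 TPM elsewhere. The gene without the fusion had 2.15 TPM in testis. At the locus of TMPRSS5, or spinesin, the gene without a name had means of at most 0.408 TPM. That of PRSS38 overlapped only with SNAP47 in the annotation, so no level is given for it. These loci were looked up after the values of the named members were known, and no test was run on them.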
